A study of Mus musculus with 24 samples.

Results

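Histone deacetylases remove acetyl groups from lysines of histones and other proteins. The 10 genes described here are 3 zinc-dependent class I enzymes (Hdac1, Hdac2 and Hdac3) and the 7 mammalian sirtuins (Sirt1 to Sirt7), taken by gene symbol from the annotation of a mouse array on which 19938 genes had a symbol of their own. Expression was measured in blastocysts of RjHan:NMRI mice, an outbred stock. The parents were put on a high-fat, high-calorie diet (HFD, a modified D12492) or a control diet (CD) at 3 weeks of age, stayed on it for 9 weeks, and all received the control diet while mating at 12 weeks. Either the mother alone was obese, or the father alone was, or neither parent was (lean parents, both on the control diet). Males (XY) and females (XX) were kept apart, which gave 6 groups of 4 arrays and 24 arrays in all. Each array carried the pooled lysate of 3 embryos of 1 mother, collected on day 3.5 after mating.

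The class I enzymes work inside large corepressor complexes. Hdac1 and Hdac2 are close relatives that share the NuRD, Sin3 and CoREST complexes, and Hdac3 is the catalytic subunit of the NCoR/SMRT complex. Sirtuins need NAD as a cosubstrate, which ties their activity to the metabolic state of the cell. Sirt1, Sirt6 and Sirt7 are mainly nuclear, Sirt2 is mainly cytosolic, and Sirt3, Sirt4 and Sirt5 are mitochondrial. Hdac1 is known as a major deacetylase of the preimplantation mouse embryo.

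Values are log2 intensities of 1 probe set per gene, so a difference of 1 is a doubling, and levels are not compared between genes because probes differ. The test took in 13311 genes that lay above the median of the whole table (2.56) on 4 or more arrays. All 10 members met this. Hdac3 exceeded the median on 17 arrays, Sirt5 on 16 and Sirt7 on 7, and the other members on all 24. Hdac1 has 2 probe sets, whose values followed each other over the 24 arrays (Pearson r = 0.977, Spearman rho = 0.99), and the set with the higher mean was used. RefSeq lists a pseudogene name, Hdac1-ps, among the synonyms of Hdac1, so signal from a near-identical copy cannot be told apart from Hdac1 on this array, and its values are uncertain for that reason.

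The arrays had almost the same mean (2.82 to 2.86), but the standard deviation of all values on an array, called its signal spread here, ran from 1.27 to 1.81. In males of obese fathers it was 1.56 ± 0.11 (SD, n = 4), and in males of lean parents 1.38 ± 0.12. The 2 widest arrays were array 22 of the obese-father females and array 12 of the obese-father males. Markers of the blastocyst's lineages were present. In each group 13 to 14 of 16 trophectoderm markers and 9 to 11 of 11 inner cell mass markers exceeded the table median. Of markers of other cells, 1 of 8 blood markers, 4 of 9 uterine and oviduct markers and 3 to 6 of 10 cumulus and granulosa cell markers did. The 4 sex check genes were dim and separated the sexes in part. The Y-linked Eif2s3y stood higher on 10 of 12 male arrays than on any female array, Uty on 5 and Kdm5d on 0 (means 1.72 in males and 1.79 in females). Xist, the RNA that silences an X chromosome in females, stood at 2.74 ± 0.54 in females and 2.13 ± 0.28 in males (SD, n = 12 each), and above the table median on 7 of 24 arrays. The labels do not give the mother or father of each pool. With 7 animals on the high-fat diet and 14 on the control diet, some pools may share a mother. The p-values rest on the spread from pool to pool and treat pools as independent. They may be too small where pools share a mother. The number of arrays limits the precision, and in pooled lysates fewer cells of a type and less RNA per cell cannot be told apart.

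The comparison of obese fathers with lean parents asks whether the father's obesity alone is followed by a different embryo transcriptome. In males, no member passed limma's test at a Benjamini-Hochberg adjusted p under 0.05 over all tested genes. The background share of genes that passed was 0.00751%. At an unadjusted p under 0.05 stood Hdac2 on the higher side and Sirt3 on the lower side, 2 of 10 members, where 14.7% of all tested genes stood (4.3% higher and 10.4% lower). The groups did not overlap for 1 member of 10, Sirt3, which was lower, and for 8.54% of all tested genes (6.63% lower). The members' median difference was -0.07, and that of all tested genes was -0.11. Both shares lie near the background, so they are no result about these 10 genes.

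Hdac2, the class I enzyme with the largest difference, read 6.75, 7.59, 7.15 and 7.93 on the 4 arrays of obese-father males. Lean-parent males read 4.34, 6.18, 6.88 and 4.52. The lean-parent arrays were split into a low and a high pair, and the highest of them lay above the lowest obese-father array, so the groups overlapped. The low pair, arrays 1 and 4, had the narrowest signal spreads of all 24 arrays (1.29 and 1.27). Arrays 2 and 3 had 1.42 and 1.53. The Hdac2 means were 7.36 ± 0.52 and 5.48 ± 1.25 (SD, n = 4 each). The log2 difference was 1.88 (SE 0.78, 95% confidence interval 0.26 to 3.49), a 3.67-fold higher mean, with a limma adjusted p of 0.316. With the signal spread of the arrays as a covariate the difference was 0.40. Without lean-parent array 3 it was 2.34, and without lean-parent array 1 it was 1.50.

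Hdac1, the partner of Hdac2 in the same complexes, read 5.15, 5.44, 5.33 and 6.14 in obese-father males. In lean-parent males it read 3.76, 4.74, 5.94 and 3.47. Here too a single lean-parent array, number 3, reached into the obese-father range. The means of 5.51 ± 0.43 and 4.48 ± 1.12 differed by 1.04 (SE 0.59, 95% confidence interval -0.20 to 2.27, limma adjusted p = 0.377). The second probe set gave 1.08 (SE 0.66). With the signal spread as a covariate the difference of the first set was -0.03. The spread comes from the same arrays and was wider in obese-father males, so that fit cannot tell it apart from the kind of parents. The direction of Hdac1 is therefore not settled. In the fit without the covariate, the difference was 0.70 without lean-parent array 4 and 1.52 without array 3. Hdac3, which carries out deacetylation in the NCoR/SMRT complex, differed by -0.23 (95% confidence interval -0.57 to 0.11), and by -0.00 with the covariate.

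**Figure D1:**
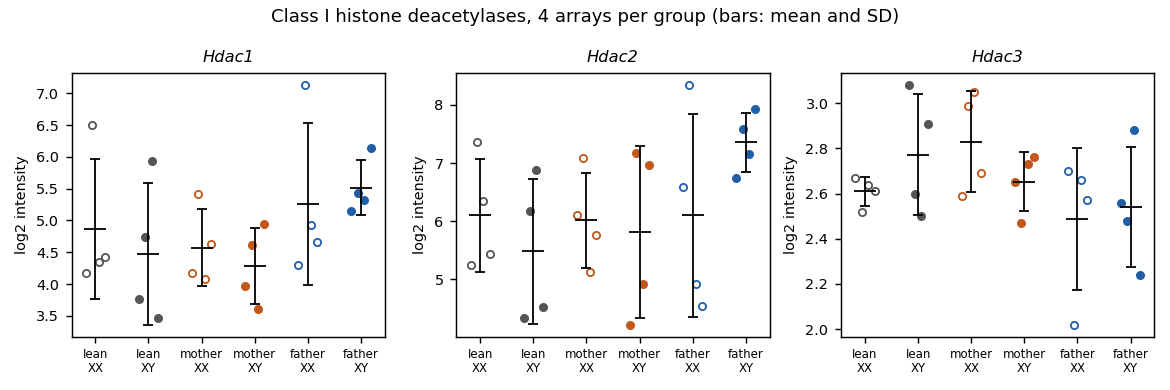
Log2 intensity of the 3 class I histone deacetylases on each of the 24 arrays, by kind of parents and sex of the embryo (open circles XX, filled circles XY), with the mean and SD of each group of 4. Obese-father males form the highest and tightest group for Hdac2 (7.36 ± 0.52), while the lean-parent males at 5.48 ± 1.25 are split into a low and a high pair. The low pair are the arrays with the narrowest signal spreads of all 24 (1.29 and 1.27).

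Among the sirtuins, Sirt3, the main deacetylase of the mitochondrial matrix, read 2.91, 2.79, 2.97 and 2.79 in obese-father males. Lean-parent males read 3.10, 3.22, 3.13 and 3.31. Every obese-father array lay below every lean-parent array. The means of 2.86 ± 0.09 and 3.19 ± 0.09 (SD, n = 4 each) differed by -0.33 (SE 0.14, 95% confidence interval -0.62 to -0.04, limma adjusted p = 0.317). The difference was -0.18 with the signal spread as a covariate, -0.36 to -0.29 when 1 array was left out, and -0.25 after arrays were centred on their medians. Lean-parent males had the highest Sirt3 mean of the 6 groups and obese-father males the lowest. Lean-parent females stood at 2.90 and obese-father females at 2.94, near the obese-father males.

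Sirt4, a mitochondrial sirtuin known for restraining glutamate dehydrogenase, read 4.27, 4.32, 4.53 and 4.45 in obese-father males and 5.08, 4.43, 4.57 and 5.04 in lean-parent males. Arrays 1 and 4 of the lean parents stood above the rest, and the groups overlapped. The difference was -0.39 (SE 0.21, limma adjusted p = 0.364), and -0.08 with the covariate. Sirt5, which removes succinyl and malonyl groups, differed by -0.21, and the tubulin deacetylase Sirt2 by -0.15. The nuclear Sirt1, Sirt6 and Sirt7 differed by 0.23, 0.03 and 0.01. With the covariate, Sirt5 stood at 0.05, Sirt2 at -0.07, Sirt1 at -0.04, Sirt6 at 0.20 and Sirt7 at 0.23. The directions of Sirt5 and Sirt1 are therefore not settled either. The confidence intervals of these 5 genes included 0, with the lowest bound at -0.54 for Sirt5 and the highest at 0.87 for Sirt1.

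**Figure D2:**
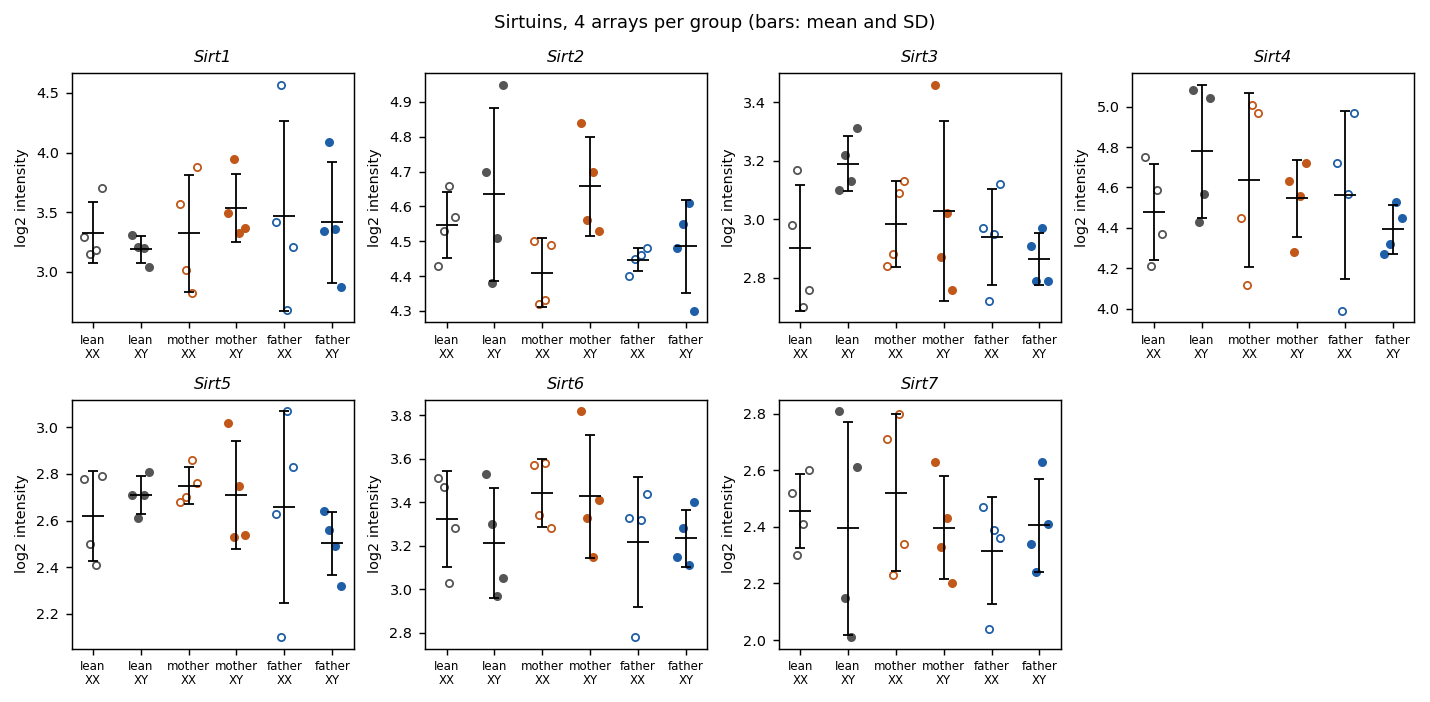
Log2 intensity of the 7 sirtuins on each of the 24 arrays, by kind of parents and sex of the embryo (open circles XX, filled circles XY), with the mean and SD of each group of 4, on an axis that does not start at 0. For Sirt3 the 4 obese-father male arrays (highest 2.97) lie below the 4 lean-parent male arrays (lowest 3.10). Lean-parent males have the highest Sirt3 mean of the 6 groups (3.19), and lean-parent females (2.90) lie near obese-father males (2.86).

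The promoters of these 2 genes, the members with the smallest p in obese-father males, are shown to set the genes side by side. RefSeq gives windows of 250 bases before to 50 after a start site for 8 of the 10 members on build GRCm38.p6. The Hdac2 window is chr10:36974294-36974593 on the plus strand with 69.7% G and C, and the Sirt3 window is chr7:140882260-140882559 on the minus strand with 61% G and C. Capitals mark a GC box (GGGCGG) or an ETS core (CCGGAAG) on either strand, and both matches lie on the reverse strand.
Hdac2: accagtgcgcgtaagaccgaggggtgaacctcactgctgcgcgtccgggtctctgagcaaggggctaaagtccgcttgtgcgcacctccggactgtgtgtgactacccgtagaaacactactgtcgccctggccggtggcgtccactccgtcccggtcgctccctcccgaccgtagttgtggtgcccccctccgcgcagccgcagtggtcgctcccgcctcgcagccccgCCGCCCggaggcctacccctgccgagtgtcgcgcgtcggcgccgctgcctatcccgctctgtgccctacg
Sirt3: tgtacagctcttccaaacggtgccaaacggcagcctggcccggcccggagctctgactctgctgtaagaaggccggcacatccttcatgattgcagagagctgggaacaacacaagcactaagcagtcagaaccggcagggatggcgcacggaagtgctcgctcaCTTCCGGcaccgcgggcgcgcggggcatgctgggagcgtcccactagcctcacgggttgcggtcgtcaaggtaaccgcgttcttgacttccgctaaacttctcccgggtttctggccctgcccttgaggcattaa

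The Hdac2 window held 1 GC box and the Sirt3 window 1 ETS core, and neither held a CCAAT box (CCAAT) or a TATA box (TATAAA). Over the 8 windows of members, 5 held a GC box, 2 a CCAAT box, 0 a TATA box and 3 an ETS core. Of 32851 mouse promoter windows of the same length, 35.7% held a GC box, 37.4% a CCAAT box, 13.6% a TATA box and 8.86% an ETS core, counted on both strands. These matches describe letters and not bound factors.

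In females of obese fathers, no member passed (limma adjusted p = 1 for each), none stood at an unadjusted p under 0.05 against 2.84% of all tested genes, and no member had groups without overlap, against 1.22% of all tested genes. Hdac2 read 6.59, 8.34, 4.92 and 4.54 with obese fathers and 5.25, 7.37, 6.35 and 5.43 with lean parents. The highest reading came from array 22, the array with the widest signal spread, and the means were equal (6.10 each). The difference was -0.00 with a 95% confidence interval of -1.62 to 1.61, and it was -0.75 without array 22. For Hdac1 the readings were 4.30, 7.13, 4.93 and 4.66 against 4.17, 6.51, 4.35 and 4.43, with 1 array far above the rest in each group. Its difference of 0.39 was -0.23 without array 22 and 0.94 without lean-parent array 14. The sirtuins differed by -0.14 to 0.14, and their intervals lay between -0.50 and 0.78.

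Whether the obese-father difference was itself different between the sexes was tested as an interaction. For Hdac2 the difference in males exceeded that in females by 1.88 (SE 1.10, limma adjusted p = 0.657), and by 0.45 once the signal spread was a covariate. For Sirt3 the interaction was -0.37 (SE 0.20, limma adjusted p = 0.654), and -0.22 with the covariate. No member passed, where 0% of all genes did. At an unadjusted p under 0.05 stood 0 of 10 members and 7.54% of all tested genes. The same test for obese mothers had no member past the threshold (limma adjusted p = 1, 0% of all genes) and 0 of 10 at an unadjusted p under 0.05, against 2.58%. Averaged over both sexes, obese fathers' embryos stood 0.71 higher for Hdac1 and 0.94 higher for Hdac2 (limma adjusted p = 0.623 for both, 0% of all genes passing), and 0.17 and 0.18 with the covariate.

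**Figure D3:**
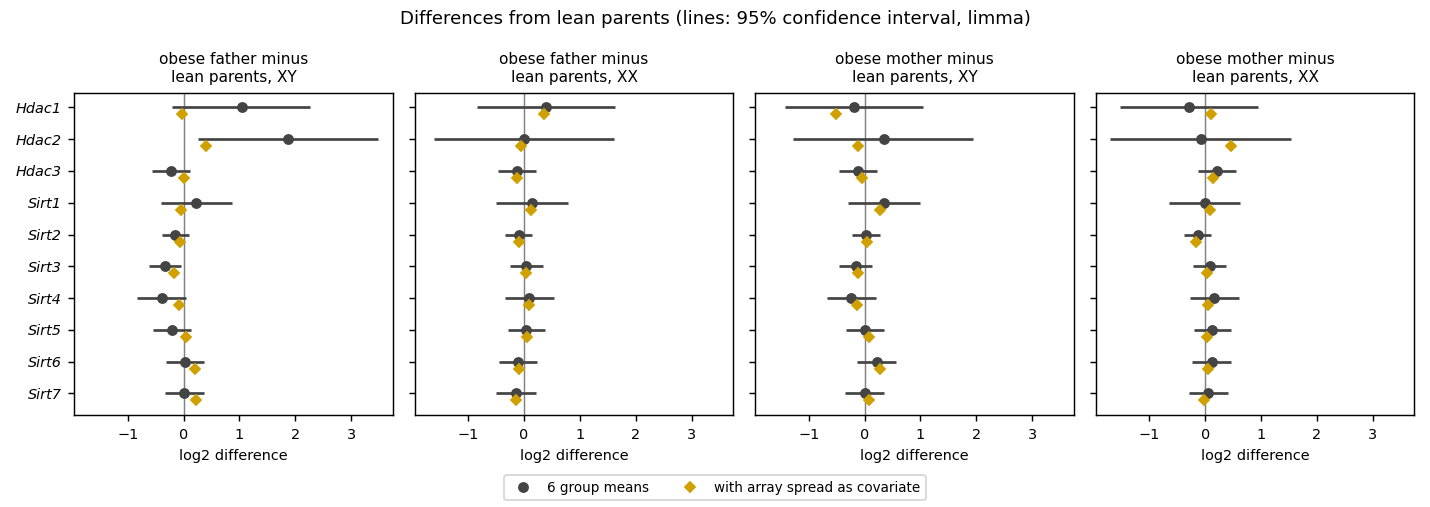
Log2 difference of each member from lean parents in 4 comparisons (circles, with 95% confidence intervals from limma as lines), and the difference with the array signal spread as a covariate (diamonds). The intervals of Hdac2 (0.26 to 3.49) and Sirt3 (-0.62 to -0.04) exclude 0 in obese-father males, and the diamonds for Hdac1 and Hdac2 there lie at -0.03 and 0.40.

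The comparison of obese mothers with lean parents uses the same lean-parent arrays as that of obese fathers. No member passed in either sex (limma adjusted p = 1 in males and 0.999 in females), and 0% of all tested genes did. None stood at an unadjusted p under 0.05, against 1.7% of all tested genes in males and 2.19% in females. In males the groups did not overlap for 1 member of 10, Sirt1, which was higher, and for 1.4% of all tested genes (0.548% higher). Sirt1, a nuclear deacetylase of histones, p53 and FOXO factors, read 3.49, 3.95, 3.33 and 3.37 with obese mothers and 3.31, 3.21, 3.20 and 3.04 with lean parents. The lowest obese-mother array was barely above the highest lean-parent array. The difference was 0.35 (SE 0.31, 95% confidence interval -0.29 to 0.99), and 0.21 without obese-mother array 6.

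The class I enzymes differed little beside their spread. With obese mothers Hdac2 read 4.22, 7.18, 4.91 and 6.97 in males and 6.10, 7.08, 5.12 and 5.76 in females. The male arrays again fell into a low and a high pair. The low pair, arrays 5 and 7, had signal spreads of 1.325 and 1.363, and the high pair, arrays 6 and 8, had 1.536 and 1.505. The differences from lean parents were 0.34 (95% confidence interval -1.28 to 1.95) in males and -0.08 (-1.70 to 1.53) in females. Hdac1 differed by -0.19 and -0.29, and Hdac3 by -0.12 and 0.22. The sirtuins other than Sirt1 differed by -0.24 to 0.22 in males, and all 7 differed by -0.13 to 0.16 in females. In both sexes a difference of -1 lay inside the intervals of Hdac1 and Hdac2, so a change of that size was not detectable with 4 arrays a group.

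Embryos of obese mothers were also set against embryos of obese fathers. In males, Hdac1 read 3.97, 4.62, 3.61 and 4.94 with obese mothers, all below the 5.15 that was the lowest reading with obese fathers. The difference was -1.23 (SE 0.59, 95% confidence interval -2.46 to 0.01, limma adjusted p = 0.573), -1.25 with the second probe set and -0.48 in the fit with the covariate. Hdac1 was the 1 member of 10 without overlap, against 6.84% of all tested genes (1.28% lower). Hdac2 differed by -1.54 (SE 0.78, limma adjusted p = 0.573), and by -0.51 with the covariate. No member stood at an unadjusted p under 0.05 in males, against 8.35% of all genes, and the genes passing after adjustment were 0.00751%.

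In females, Hdac3 was the 1 member of 10 at an unadjusted p under 0.05, against 3.25% of all genes (1.97% higher), and 0% passed after adjustment. It read 2.59, 2.99, 3.05 and 2.69 with obese mothers and 2.70, 2.02, 2.66 and 2.57 with obese fathers. The groups overlapped, and the lowest reading came from array 22. The difference was 0.34 (SE 0.16, limma adjusted p = 0.975), and 0.19 without that array. Hdac3 lay close to the table median of 2.56.

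Males were compared with females of the same parents. No member passed with lean parents, obese mothers or obese fathers, where 0%, 0% and 0.00751% of all genes did. With obese mothers, Sirt2, a cytosolic deacetylase of tubulin and of mitotic regulators, read 4.84, 4.56, 4.70 and 4.53 in males and 4.50, 4.32, 4.33 and 4.49 in females. Every male array lay above every female array, for 1 member of 10 and for 1.66% of all tested genes (0.766% higher). The difference was 0.24 (SE 0.12, limma adjusted p = 1), and 0.26 once the signal spread was a covariate. Sirt2 was also the 1 member of 10 at an unadjusted p under 0.05, against 1.41% of all genes (0.706% higher).

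With lean parents, Sirt3 read 2.98, 3.17, 2.70 and 2.76 in females, and the male arrays given above all exceeded 3 of these 4. The difference was 0.29 (SE 0.14, 95% confidence interval -0.00 to 0.58, limma adjusted p = 0.992). With obese fathers it was -0.08. Hdac2 was 1.26 higher in males than in females of obese fathers (SE 0.78, limma adjusted p = 0.843), and -0.62 with lean parents. At an unadjusted p under 0.05 stood 0 of 10 members with lean parents, against 3.37% of all genes, and 0 of 10 with obese fathers, against 5.42%.

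Across all 6 groups the order of the means was set against the pooled SD within groups. Hdac2 ran from obese-father males through lean-parent females, obese-father females, obese-mother females and obese-mother males to lean-parent males, and only the step from the first to the second (1.26) exceeded its pooled SD of 1.20. For the other 9 members no step between neighbours exceeded the pooled SD, so their orders are not resolved. The group means of a member spanned between 0.21 (Sirt7) and 1.88 (Hdac2).

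For every member except Sirt2, the signal spread of the array took up a larger share of the variance than the 6 groups did. Over the 24 arrays, Hdac2 followed the spread with Pearson r = 0.9 and Spearman rho = 0.924, and Hdac1 with 0.848 and 0.803. Sirt5 ran the other way with -0.847 and -0.8, Sirt4 with -0.762 and -0.795, and Hdac3 with -0.746 and -0.703. For Hdac1, Hdac2, Sirt4 and Sirt5 the permutation p was 1e-05, the smallest that 100000 permutations can give, and 2.5e-05 after adjustment over the 10 members. With the 2 arrays farthest from the median left out, r was 0.91 for Hdac2, 0.74 for Hdac1, -0.708 for Sirt5, -0.785 for Sirt4 and -0.484 for Hdac3.

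Weaker relations were seen for Sirt3 (r = -0.636, rho = -0.572, adjusted permutation p of r = 0.00117), Sirt7 (-0.617, -0.672, 0.0016) and Sirt6 (-0.497, -0.396, 0.0177). Sirt1 was at r = 0.417 and rho = 0.222 (adjusted permutation p of r = 0.0498, of rho = 0.328), and Sirt2 at -0.386 and -0.208 (adjusted permutation p of r = 0.0626). Without the 2 farthest arrays, r was -0.583, -0.63, -0.402, 0.331 and -0.27 for these 5 in the order given. The spread is computed from all genes of the same arrays, so the p-values test no independent link. The members with the highest means, Hdac2 (6.145) and Hdac1 (4.83), rose with the spread. Sirt1 (3.38) rose weakly, while Sirt4 (4.57) and Sirt2 (4.53) fell at higher means. Every member with a mean below that of Sirt1 fell. Whether the direction depends on the level was not tested, since levels are not compared between genes. The spread alone took up 81% of the variance of Hdac2, 71.9% of that of Hdac1 and 14.9% of that of Sirt2, while the 6 groups took up 23.9%, 23.2% and 36%. The groups are fitted with more parameters than the spread, so their shares would exceed 0 even without any difference between groups.

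**Figure D4:**
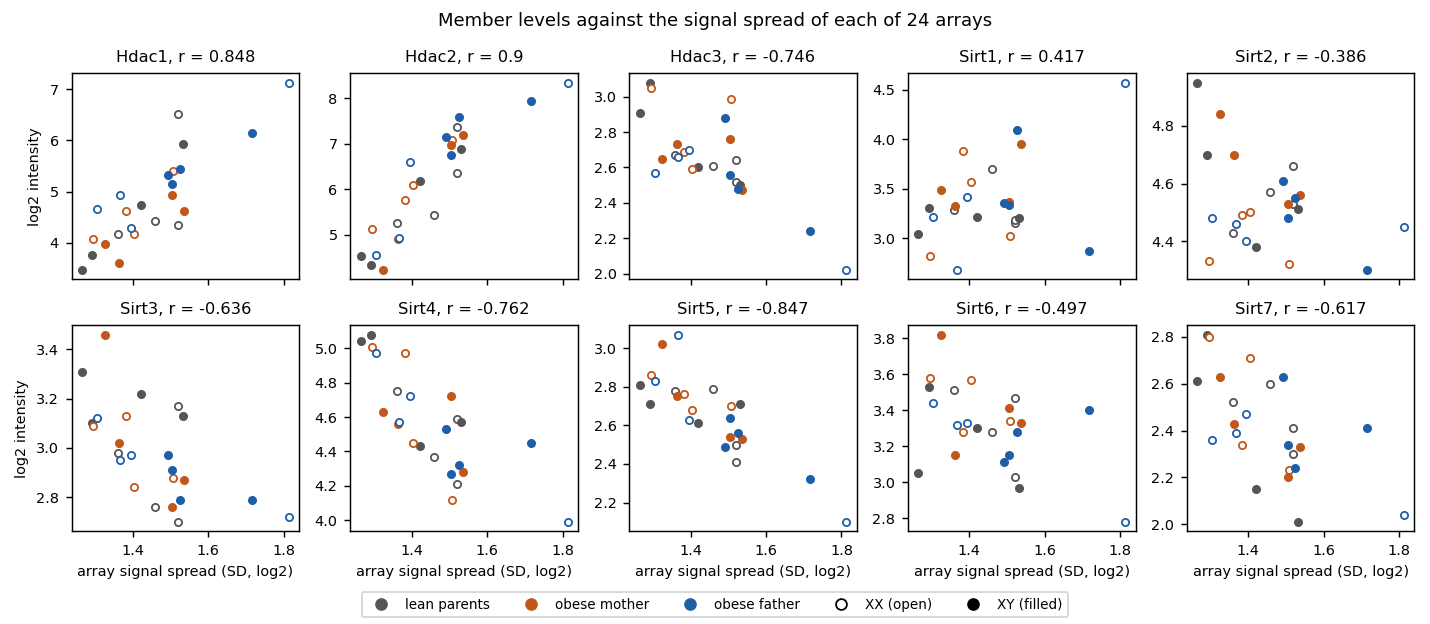
Log2 intensity of each member against the signal spread (SD of all log2 values) of each of the 24 arrays, coloured by kind of parents, with XX open and XY filled. Hdac1 and Hdac2 climb with the spread (r = 0.848 and 0.9), Sirt4, Sirt5 and Hdac3 fall with it, and Sirt2 shows the weakest relation (r = -0.386).

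Deviations from the group means showed which members moved together from pool to pool. Of 45 pairs, 12 positive and 13 negative correlations passed an adjusted permutation p under 0.05 over the 24 arrays. Hdac1 and Hdac2 were positively correlated (r = 0.815, rho = 0.737, adjusted permutation p of r = 0.00015, and r = 0.744 without the 2 farthest arrays). The most negative pair was Hdac2 with Sirt5 (r = -0.83, rho = -0.833, adjusted p = 0.00015, and -0.754 without the 2 arrays), followed by Hdac1 with Sirt7 (r = -0.755, rho = -0.744). Among sirtuins the highest was Sirt4 with Sirt7 (r = 0.615, rho = 0.579, adjusted p = 0.0082). Sirt1 with Sirt5 passed at r = -0.481 (rho = -0.171) and stood at 0.0606 without the 2 farthest arrays, so that relation rests on them.

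All of these pairs share the arrays and their spread. With the signal spread removed as well, 0 of 45 pairs passed in either direction, and Hdac1 with Hdac2 fell to r = 0.254 (rho = 0.158, adjusted permutation p = 0.623). The largest remaining value was Hdac1 with Sirt3 at r = 0.621 (rho = 0.508, adjusted permutation p = 0.0783, and 0.388 without the 2 farthest arrays). That pair had been at -0.215 before.

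**Figure D5:**
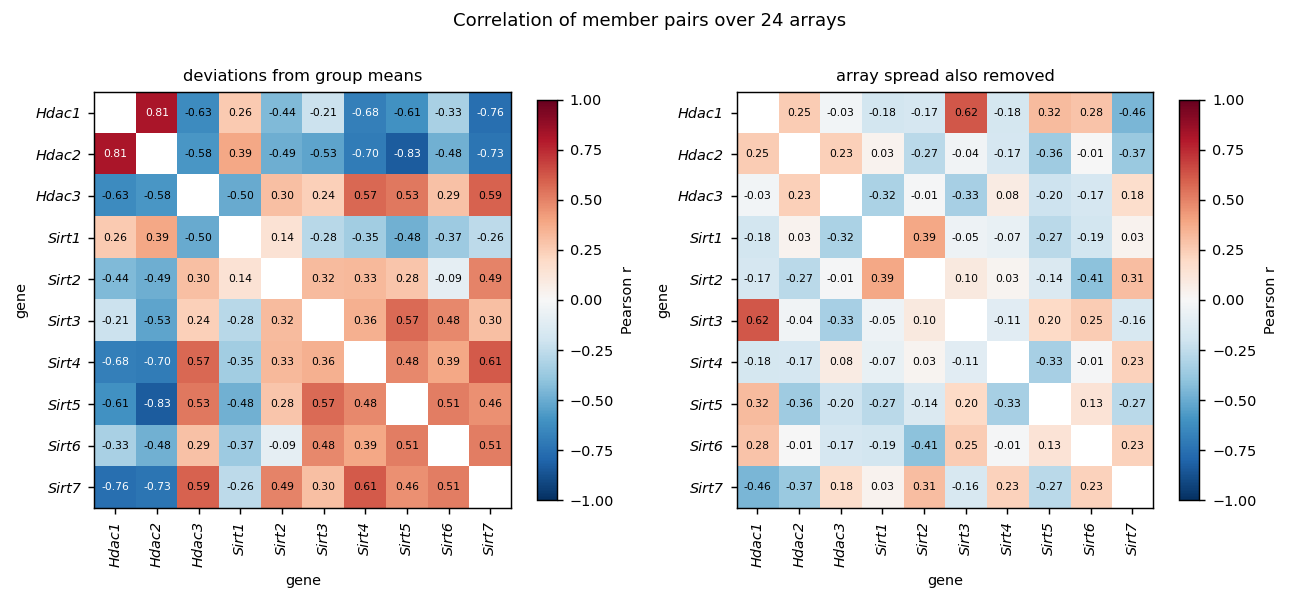
Pearson correlation of each pair of members over 24 arrays, for deviations from the group means (left) and with the array signal spread also removed (right), on a colour scale from -1 to 1. On the left the r of Hdac1 and Hdac2 is negative with Hdac3 and the sirtuins other than Sirt1 (-0.83 for Hdac2 with Sirt5). It is positive with Sirt1 (0.263 and 0.387). Of these pairs, Hdac1 with Sirt2, Sirt3 and Sirt6, and both pairs with Sirt1, did not pass. No pair passed on the right.

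The genes most like each member over the 24 arrays are given as a description. Hdac2 was closest to the ribosomal protein genes Rpl19 (r = 0.942) and Rpl8 (0.937), and Hdac1 to Smc6 (0.93), a subunit of a chromosome maintenance complex, and the mitochondrial protease gene Yme1l1 (0.92). Hdac3 was closest to Prps1l1 (0.862), Sirt1 to Zwint (0.763), Sirt2 to the glucose transporter gene Slc2a4 (0.737), Sirt3 to Foxp4 (0.788), Sirt4 to 9130008F23Rik (0.852), Sirt6 to Vip (0.77) and Sirt7 to Myl3 (0.844). Sirt5 was closest to Btd, the biotinidase gene (0.906), and Btd also ranked first for Sirt5 after group means and signal spread were removed (0.813). For no other member was the first gene the same with and without this removal.

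The members were then set beside genes of the same pathways in obese-father males against lean-parent males. None of these genes passed limma's test after adjustment. Of the other zinc-dependent deacetylases, 7 of 8 were tested and 6 stood below 0, as did 8882 of all 13311 tested genes. Their median was -0.25 (-0.03 in the fit with the covariate). Hdac6, a tubulin deacetylase, Hdac8 and Hdac10 each stood at -0.25 (-0.14, -0.07 and -0.03 with the covariate), and Hdac11 was the 1 above 0, at 0.28 (0.45). Of 35 subunits of corepressor complexes that carry Hdac1, Hdac2 or Hdac3, 28 were tested and 18 stood above 0, with a median of 0.19, and of -0.02 with the covariate. The Sin3 subunits Ing1 (0.87) and Sap130 (-0.42) were the 2 at an unadjusted p under 0.05, both with a limma adjusted p of 0.316. Of all tested genes 14.7% stood at an unadjusted p under 0.05 in this comparison. The histone chaperone gene Rbbp7 stood at 1.31 (0.05 in the fit with the covariate).

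Of 14 histone acetyltransferases, which add the marks that deacetylases remove, 10 were tested, with a median of -0.03, and of -0.26 with the covariate. None stood at an unadjusted p under 0.05 in males, against 14.7% of all tested genes. In obese-father females 8 of 10 stood above 0, with a median of 0.24 against 0.02 over all genes, and Kat2a (0.61) and Kat7 (0.56) had an unadjusted p under 0.05 (limma adjusted p = 1). Of all tested genes 2.84% had such a p in females. Of 14 genes of NAD supply and use, 7 were tested in males, with a median of -0.03 (0.10 with the covariate) and 0 at an unadjusted p under 0.05.

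Substrates and partners of the mitochondrial sirtuins had a median of 0.36 in obese-father males, with 9 of 14 tested genes above 0, and 0.25 in obese-father females, with 12 of 14. The medians of all tested genes in males and in females are given above. In males Atp5a1, the alpha subunit of ATP synthase, had group means of 7.11 against 6.11 (limma adjusted p = 0.331), while the differences stood at 1.05 for the superoxide dismutase gene Sod2 and 0.79 for the acyl-CoA dehydrogenase gene Acadl. With the signal spread as a covariate the differences of Atp5a1, Sod2 and Acadl were 0.11, -0.10 and 0.04, and the list's median was -0.04. In females the isocitrate dehydrogenase gene Idh2 stood at 0.52 (limma adjusted p = 1). Of substrates and partners of nuclear and cytosolic sirtuins, 12 of 16 were tested in males, with a median of -0.09, and of -0.04 with the covariate. The acetyl-CoA synthetase gene Acss2 (-0.28, limma adjusted p = 0.332) was the 1 at an unadjusted p under 0.05, against 14.7% of all tested genes.

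Other markers were read in the same comparison. All 8 tested cumulus and granulosa cell markers stood below 0 in obese-father males (median -0.35, and -0.06 with the covariate). Of these, 4 had an unadjusted p under 0.05, where 14.7% of all tested genes did (10.4% lower). All 6 tested uterine and oviduct markers (median -0.25, and -0.07 with the covariate) and both tested blood markers (-0.27 and -0.03) stood below 0 as well, so the direction is shared by all 3 lists and by the larger part of the tested genes. The mean of the 10 named cumulus markers ran from 2.39 to 2.77 in males of obese fathers and from 2.65 to 3.09 in males of lean parents. Of these markers 3 exceeded the table median with obese fathers and 6 with lean parents, with Amh, Foxl2 and Nr5a1 above it on all 24 arrays. Of trophectoderm markers 13 of 15 tested stood above 0 (median 0.28, and 0.10 with the covariate). The 4 inner cell mass markers with the smallest unadjusted p went both ways. Pou5f1 stood at 1.73 (0.49 with the covariate), Esrrb at -0.45 (-0.21), Gdf3 at -0.38 (-0.08) and Fgf4 at -0.28 (-0.15). The 4 such primitive endoderm markers were Sox7 at -0.57 (-0.37), Foxa2 at -0.29 (0.03), Lama1 at -0.19 (-0.04) and Pdgfra at 0.30 (0.31). The part of these markers in the values of Hdac2 and Sirt3 was not tested.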

How the data were processed

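Gene expression was measured on 24 arrays, 1 per pool of 3 blastocysts. The authors deposited 1 log2 intensity per probe set and array. Per the submitters' processing notes they used RMA and affy. Their versions, genome build and probe set definition were not given in the sources used here. RMA brings arrays to a common scale, yet their standard deviations differ.

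Of 35556 probe sets, 21789 had 1 symbol, 1621 several and 12146 none in GEO's platform annotation, and the last 2 kinds were not named. The set with the highest mean was used for 999 genes with several. Of 19938 genes, 6627 were too dim to test. A mean for each of the 6 groups, taken from the labels, was fitted to the 24 arrays together (lmFit and eBayes of limma 3.58.1, R 4.3.3) for 14 contrasts, each adjusted over 13311 genes. The procedure was tested on simulated data with independent noise for each gene. Those data lack the signal spread that the genes of a real array share. Correlations used 100000 permutations, two-sided, and those of deviations do not count the degrees of freedom of the group means.

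The members, the gene lists and the tests were chosen with earlier results of these data known. All 10 members are named, with at most 4 genes of each list by smallest unadjusted p, the 2 genes most like each member (1 is printed where the second adds nothing) and the sex check genes measured. Alternatives were other filters on dim genes, averaged probe sets, array weights, a trended robust prior, the array standard deviation as a covariate, median centring, quantile normalization, fits restricted to the groups compared, a threshold of 0.10 and each array left out in turn. The second Hdac1 probe set, and leaving out the 2 widest arrays, were added after seeing the data. Hdac1 and Hdac3 have no promoter window here, and sequences on chromosome 18 are not reported here.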

Additional observations from a re-analysis of the deposited data

Results flagged for a closer look

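Within each group of 4 arrays, the gap between the highest or lowest array and its neighbour was set against the range of the group, for 10 members in 6 groups (60 sets of 4 values). A single set passed Dixon's 95% critical value, and chance alone gives about 1 in 20. This was Hdac1 in females of lean parents, where array 14 read 6.51 while the other arrays read 4.17, 4.35 and 4.43 (ratio 0.892). The same array gave 7.37 for Hdac2, the highest of its group, and its signal spread was 1.52, in a group that ran from 1.36 to 1.52. Without it, the difference between obese fathers and lean parents in females went from 0.39 to 0.94 for Hdac1, and that between the sexes with lean parents from -0.39 to 0.16, and neither passed limma's test.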

How the results depend on the processing

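No paired analysis was possible because the labels do not give the mother of each pool, and the array numbers pair nothing. Male and female pools that may share a mother were therefore compared as unpaired. In 313 alternative counts over 14 contrasts, 160 of them leaving out 1 array, 0 had a member past limma's threshold, and the smallest adjusted p of a member was 0.126. A filter that asked for 12 arrays above the table median left 9 members to test, without Sirt7. Of 2990 alternative values of the 140 member differences, 18 moved by more than the pooled SD, 8 of them with the signal spread as a covariate. After quantile normalization in obese-father males Sirt2 went from -0.15 to -0.42 and Sirt4 from -0.39 to -0.71. Leaving out the 2 widest arrays gave 1.68 for Hdac2 and -0.30 for Sirt3 there. The signal spread relation no longer passed after median centring for Sirt3 (r = -0.345), Sirt6 (-0.224) and Sirt7 (-0.363), and after quantile normalization for Sirt1 (0.397 against 0.417, adjusted permutation p = 0.067 against 0.0498), Sirt6 (-0.389) and Sirt7 (-0.338), whereas Sirt2 then passed (-0.755). Pairs that passed were 0 positive and 0 negative with the spread removed, and 4 and 7 after quantile normalization, against 12 and 13. The cause was not tested. Over all genes, the number that passed in obese-father males against lean-parent males was 1, and 0 to 2 under the alternatives and when 1 array was left out. In obese-mother against obese-father males it was 1, and 0 to 2 in both. Between the sexes with obese fathers it was 1, and 0 to 4 under the alternatives. For Hdac2 in obese-father females the 95% interval ran from -1.62 to 1.61, so a doubling was not detectable there, and Hdac3, Sirt5 and Sirt7 lie near the table median, where signal limits what can be seen. Sirt3, with a mean of 2.98 and a lowest reading of 2.70, lay only a little above that median of 2.56.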

Other observations

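The start site of Psmd13, a gene for a subunit of the proteasome, lies 85 bases from that of Sirt3 in the RefSeq annotation (GRCm38.p6), transcribed in the other direction. It was chosen after the values of Sirt3 were seen. Psmd13 stood at 3.52 ± 0.86 in males of obese fathers and 2.79 ± 0.40 in males of lean parents (SD, n = 4 each), a difference of 0.73 (SE 0.45, limma adjusted p = 0.403), which became 0.13 when the signal spread was a covariate. Sirt3 stood at -0.33 in the same comparison. Over the 24 arrays the 2 genes had a Pearson r of -0.301, given as a description.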
